A study of Mus musculus with 20 samples.

Results

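Crtac1, Map1a, Optc and Adh4 are 4 genes whose mRNA stood at least 2.21-fold higher in visceral adipose tissue (VAT) of mice of both high-fat groups than in the reference mice, when each gene is read with its brightest probe. They were chosen for the size of this rise in 1 comparison: the members are the 4 genes with the largest rise in HFepa over Ref, after Dock8, among probes called different by limma whose 8 HFepa arrays all lay above all 6 Ref arrays. They are 4 of 25618 gene names tested, and all 7 of their probes passed the filter on dim probes, among 39390 tested probes. The members were therefore picked on the levels of the HFepa and Ref arrays, so that HFepa vs. Ref is given below as a description, without a test. The levels of the HFoleic arrays did not enter the rule, and HFoleic vs. Ref is tested. Limma fitted 1 spread per probe over all arrays, however, so the spread of the HFoleic arrays did enter the calls of the rule. The p-values of HFoleic vs. Ref use that same spread and do not allow for this. The Ref arrays serve both comparisons, so that HFoleic vs. Ref is not independent of the choice either. The same holds for HFepa vs. HFoleic: choosing genes with high HFepa values favours a higher HFepa minus HFoleic, and its intervals and p-values below do not allow for this.

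The tissue was epididymal VAT of male C57bl/6J mice of the third generation (F3), with 1 mouse per Agilent 1-colour array and 20 arrays in all. The 6 Ref mice came from the control lineage, whose growing diet had been supplemented with high-oleic sunflower oil over the generations, and received a low-fat diet. The 6 HFoleic mice came from the same control lineage and received an obesogenic diet high in fat and in sucrose. The 8 HFepa mice received the same obesogenic diet but came from the omega 3 lineage, whose growing diet had been supplemented with a fish oil rich in eicosapentaenoic acid (EPA). No group from the omega 3 lineage on the low-fat diet was analysed here, so in HFepa vs. Ref the diet and the lineage cannot be told apart. In the GEO titles the 3 groups are called STD Cont, HFD Cont and HFD O3. Nothing in the labels says which mice shared a litter or a cage, and p-values measure the spread between these mice.

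The share of spots well above background was 66.06% to 71.88% per array, no spot was saturated, and the correlation between arrays of 1 group was 0.977 to 0.996. The arrays lay on 3 slides, each with arrays of all 3 groups. HFoleic mouse 1 was the lowest of its group in 20.5% of all probes and in 62.9% of the probes called higher in HFoleic vs. Ref, and HFepa mouse 3 was the lowest of its group in 14.3% of all probes. Adipocyte markers were bright in every group, with a mean log2 intensity of the 12 genes between 16.07 and 16.57 in all mice, as the label of the tissue has it.

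The members have separate roles. Crtac1 encodes cartilage acidic protein, a glycosylated secreted protein of the cartilage matrix, and a form of it in neurons (LOTUS) is an antagonist of the Nogo receptor. Optc encodes opticin, a small leucine-rich repeat proteoglycan that binds collagen fibrils and is best known from the vitreous of the eye. Map1a encodes a microtubule-associated protein that is abundant in neurons, and Adh4 encodes a class II alcohol dehydrogenase, an enzyme known mainly from liver that oxidises alcohols, retinol among them. Adipose tissue of obese rodents is known to remodel its extracellular matrix and to recruit macrophages, and it stores retinoids.

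The 250 bases before each annotated gene start are shown as context for genes chosen for their rise in HFepa over Ref. The sequences were taken from RefSeq on GRCm38.p6, where all 4 genes had an entry. Capitals mark matches, on either strand, to the letters of the TATA box (TATAAA), the CCAAT box (CCAAT), the GC box (GGGCGG), the nuclear receptor hexamer (AGGTCA), the E-box (CACGTG) and the CRE (TGACGTCA). Crtac1 is on chr19:42431789-42432038, minus strand, Map1a on chr2:121289352-121289601, plus strand, Optc on chr1:133908000-133908249, minus strand, and Adh4 on chr3:138415247-138415496, plus strand.
Crtac1: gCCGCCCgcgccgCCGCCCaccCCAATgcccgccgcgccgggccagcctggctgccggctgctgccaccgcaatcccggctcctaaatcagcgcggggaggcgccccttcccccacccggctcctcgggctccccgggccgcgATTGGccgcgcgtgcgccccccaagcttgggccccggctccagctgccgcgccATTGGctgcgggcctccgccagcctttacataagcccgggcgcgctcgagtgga
Map1a: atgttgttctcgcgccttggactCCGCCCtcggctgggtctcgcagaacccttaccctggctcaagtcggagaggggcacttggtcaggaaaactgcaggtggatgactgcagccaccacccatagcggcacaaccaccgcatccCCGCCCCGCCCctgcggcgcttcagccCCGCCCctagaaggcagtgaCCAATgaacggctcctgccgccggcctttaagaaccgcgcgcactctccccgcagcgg
Optc: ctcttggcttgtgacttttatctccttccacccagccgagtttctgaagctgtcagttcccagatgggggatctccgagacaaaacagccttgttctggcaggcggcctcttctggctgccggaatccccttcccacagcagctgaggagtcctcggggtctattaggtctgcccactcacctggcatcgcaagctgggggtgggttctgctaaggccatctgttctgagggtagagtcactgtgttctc
Adh4: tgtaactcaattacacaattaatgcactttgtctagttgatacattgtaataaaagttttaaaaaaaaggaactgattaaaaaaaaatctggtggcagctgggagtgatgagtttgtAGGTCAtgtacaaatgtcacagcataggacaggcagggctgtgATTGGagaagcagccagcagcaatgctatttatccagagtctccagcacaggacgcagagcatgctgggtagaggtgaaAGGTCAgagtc

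The windows differed in composition. Over the 300 bases that also take in the first 50 bases of the transcript, G and C made up 76.7% for Crtac1, 65.7% for Map1a, 54.3% for Optc and 42.3% for Adh4, and the median over the 32851 mouse promoters of this length was 52.7%, with quartiles of 45.7% and 61.7%. Crtac1 held 3 CCAAT boxes, 3 GC boxes and 1 TATA box, of which the TATA box and 1 GC box lie after the start. Map1a held 4 GC boxes and 1 CCAAT box, and 2 of its GC boxes share a base. Adh4 held 2 nuclear receptor hexamers and 1 CCAAT box. Optc held none of the 6 motifs, and no motif occurred in all 4 windows. Of all promoters, 37.4% held a CCAAT box, 35.7% a GC box, 16.3% a nuclear receptor hexamer, 13.6% a TATA box, 7.15% an E-box and 1.79% a CRE. A second annotated start of Crtac1, whose window overlaps the first, held none of these motifs. These are matches of letters and not binding sites.

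Values below are log2 intensities after quantile normalization between the arrays, where 1 unit is a doubling. A level of 1 probe cannot be set against that of another probe. The plot of every probe by mouse shows the values that the next paragraphs give.

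**Figure D1:**
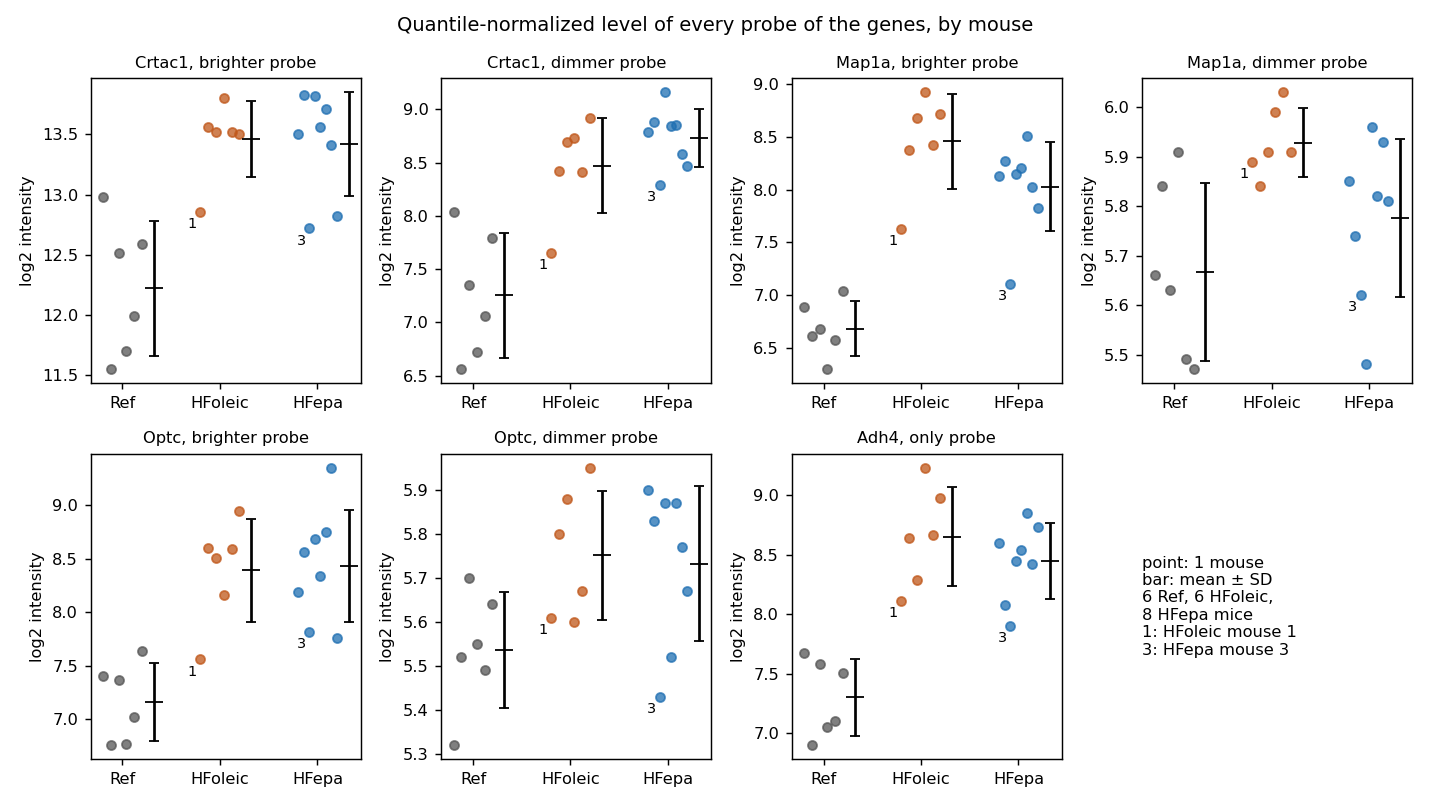
Quantile-normalized log2 intensity (y axis) of the 7 probes in each of the 20 mice, by group (x axis). Each point is 1 mouse, the bars are the group mean with its SD, and the numbers mark HFoleic mouse 1 and HFepa mouse 3. For Map1a (brighter probe) and Adh4 all 6 HFoleic mice lie above the highest Ref mouse, as do all 8 HFepa mice, which the rule required. In Crtac1 and in the brighter probe of Optc HFoleic mouse 1 lies within the Ref range.

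Crtac1, the cartilage matrix protein, has 2 probes on chromosome 19 (mm9, minus strand). The brighter one lies at chr19:42358129-42358630, where its 60 bases are spread over 502 bases of genome, and the dimmer one at chr19:42357810-42357869. On the brighter probe the Ref mice had a lowest, median and highest level of 11.55, 12.25 and 12.98, the HFoleic mice 12.86, 13.52 and 13.8, and the HFepa mice 12.72, 13.53 and 13.83. Of the 6 HFoleic mice 5 lay above every Ref mouse, the exception being mouse 1 (12.86), and of the 8 HFepa mice 6 did, the exceptions being mice 3 (12.72) and 8 (12.82). Ref mouse 2 was the Ref mouse with the highest level.

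The dimmer probe is the one on which the rule picked Crtac1. Its Ref mice ran from 6.56 over a median of 7.2 to 8.04, its HFoleic mice from 7.65 over 8.55 to 8.92, and its HFepa mice from 8.29 over 8.81 to 9.16. Here all 8 HFepa mice lay above the Ref mice, as the rule required, and 5 of the 6 HFoleic mice did. The 2 probes of Crtac1 deviated from their group means together over the 20 arrays (r = 0.90), although the order of the mice was not the same in every case: HFoleic mouse 8 was the highest of its group on the dimmer probe (8.92) and had 13.5 on the brighter one, where only mouse 1 was lower.

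Group means of the brighter Crtac1 probe were 12.22 ± 0.56 (SD, n = 6) in Ref, 13.46 ± 0.31 (n = 6) in HFoleic and 13.42 ± 0.43 (n = 8) in HFepa. Crtac1 was 2.36-fold higher in HFoleic than in Ref (log2 fold change 1.24, SE 0.24, limma adjusted p = 0.00117), and 1.21 higher on the log2 scale with its dimmer probe (limma adjusted p = 0.00117). In HFepa it stood 2.29-fold above Ref on the brighter probe (log2 fold change 1.20) and 2.79-fold on the dimmer one (1.48). The direct difference between HFepa and HFoleic was -0.04 on the brighter probe (95% confidence interval -0.51 to 0.43, limma adjusted p = 0.948) and 0.26 on the dimmer probe (-0.20 to 0.72, limma adjusted p = 0.53). The interval of the brighter probe allows a difference of 0.704-fold to 1.35-fold.

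Optc, the collagen-binding proteoglycan, has a brighter probe at chr1:135793804-135793863 and a dimmer one at chr1:135800288-135800347 (mm9, minus strand). On the brighter probe the lowest, median and highest level was 6.76, 7.2 and 7.64 in Ref, 7.56, 8.55 and 8.95 in HFoleic, and 7.76, 8.45 and 9.35 in HFepa. All 8 HFepa mice were above the Ref mice, as the rule required, with mouse 8 (7.76) and mouse 3 (7.82) nearest to them. HFepa mouse 7 (9.35) was the highest of all 20. In HFoleic 5 of 6 mice were above, and mouse 1 (7.56) was within the Ref range.

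Means of the brighter Optc probe were 7.16 ± 0.37 (SD, n = 6) in Ref, 8.40 ± 0.48 (n = 6) in HFoleic and 8.43 ± 0.52 (n = 8) in HFepa. Optc was 2.35-fold higher in HFoleic than in Ref (log2 fold change 1.23, SE 0.25, limma adjusted p = 0.00164), and in HFepa it stood 2.41-fold above Ref (1.27). HFepa minus HFoleic was 0.04 (95% confidence interval -0.46 to 0.53, limma adjusted p = 0.956). The dimmer probe was near the floor: it was well above background in only 2 of 6 Ref mice, in 6 of 6 HFoleic and in 6 of 8 HFepa mice, and the groups overlapped (5.32 to 5.7, 5.6 to 5.95 and 5.43 to 5.9). It was 0.22 higher in HFoleic than in Ref, which did not pass the test (limma adjusted p = 0.0737), and its difference between HFepa and Ref was 0.20. The size of the Optc rise therefore rests on the brighter probe. The 2 Optc probes are annotated to different RefSeq transcripts, so they need not read the same mRNA.

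Map1a, the microtubule-associated protein, had the largest rise of the 4 genes in HFoleic. Its brighter probe lies at chr2:121134341-121134400 and its dimmer probe, nearer the start of the gene, at chr2:121124354-121124413 (mm9, plus strand). The Ref mice lay in a narrow band, with a lowest, median and highest level of 6.3, 6.65 and 7.04. The HFoleic mice had 7.63, 8.55 and 8.92 and the HFepa mice 7.11, 8.14 and 8.51. All 6 HFoleic mice were above every Ref mouse, and so were the 8 HFepa mice, as the rule required. HFepa mouse 3 (7.11) was the nearest to Ref mouse 7 (7.04).

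Means of the brighter Map1a probe were 6.68 ± 0.26 (SD, n = 6) in Ref, 8.46 ± 0.45 (n = 6) in HFoleic and 8.03 ± 0.42 (n = 8) in HFepa. Map1a was 3.41-fold higher in HFoleic than in Ref (log2 fold change 1.77, SE 0.21, limma adjusted p = 0.000138), and it stood 2.54-fold above Ref in HFepa (1.34). Map1a had the largest gap between the high-fat groups of the 4 genes. HFepa was lower than HFoleic by 0.43 on the log2 scale, and its 95% confidence interval, unadjusted, was -0.84 to -0.02 (0.744-fold). After adjustment over all tested probes this difference did not pass the limma test (adjusted p = 0.227). It ran from -0.06 on slide 2 (3 HFepa mice and 1 HFoleic mouse) to -0.98 on slide 3 (2 mice of each group). Slide 3 holds HFepa mouse 3. Without that mouse the difference was -0.30, and without HFoleic mouse 1 it was -0.59 (limma adjusted p = 0.0582).

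The dimmer Map1a probe did not show a rise of this size. It ran from 5.47 to 5.91 in Ref, from 5.84 to 6.03 in HFoleic and from 5.48 to 5.96 in HFepa, and was well above background in 4 of 6, 6 of 6 and 8 of 8 mice. It was 0.26 higher in HFoleic than in Ref (1.2-fold, limma adjusted p = 0.0251), and its difference between HFepa and Ref was 0.11. The 2 probes did not deviate together over the 20 arrays (r = 0.05).

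Adh4, the alcohol dehydrogenase, has 1 probe, at chr3:138093716-138093775 (mm9, plus strand), and thus no second reading. Ref mice had a lowest, median and highest level of 6.9, 7.3 and 7.67, HFoleic mice 8.11, 8.66 and 9.23, and HFepa mice 7.9, 8.49 and 8.85. No HFoleic mouse overlapped with Ref, and no HFepa mouse did, as the rule required. HFoleic mouse 1 (8.11) and HFepa mouse 3 (7.9) were the lowest of their groups. Means were 7.30 ± 0.32 (SD, n = 6), 8.65 ± 0.42 (n = 6) and 8.45 ± 0.32 (n = 8). Adh4 was 2.56-fold higher in HFoleic than in Ref (log2 fold change 1.35, SE 0.19, limma adjusted p = 0.000294), and it stood 2.21-fold above Ref in HFepa (1.15). HFepa minus HFoleic was -0.21 (95% confidence interval -0.58 to 0.16, limma adjusted p = 0.542).

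Thus all 4 genes were called higher in HFoleic than in Ref with their brightest probe, and 2 of them, Map1a and Adh4, did not overlap between these groups. Over all tested probes 30.8% were called in HFoleic vs. Ref (15.2% as higher and 15.6% as lower), and in 6.77% every HFoleic array lay above every Ref array. In HFepa vs. Ref, the contrast of the rule, 2.26% of probes were called (0.96% as higher and 1.3% as lower), and 0.328% had every HFepa array above every Ref array, from which nothing is read about the members. None of the 4 genes was called between HFepa and HFoleic, where 0.00254% of all probes were, that is 1 probe. Without the adjustment, at p under 0.05, it would have been 1 of the 4, Map1a. A p that misses the threshold does not show equal levels, and the intervals above are what the data allow. The plot of differences probe by probe sets the 3 contrasts side by side.

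**Figure D2:**
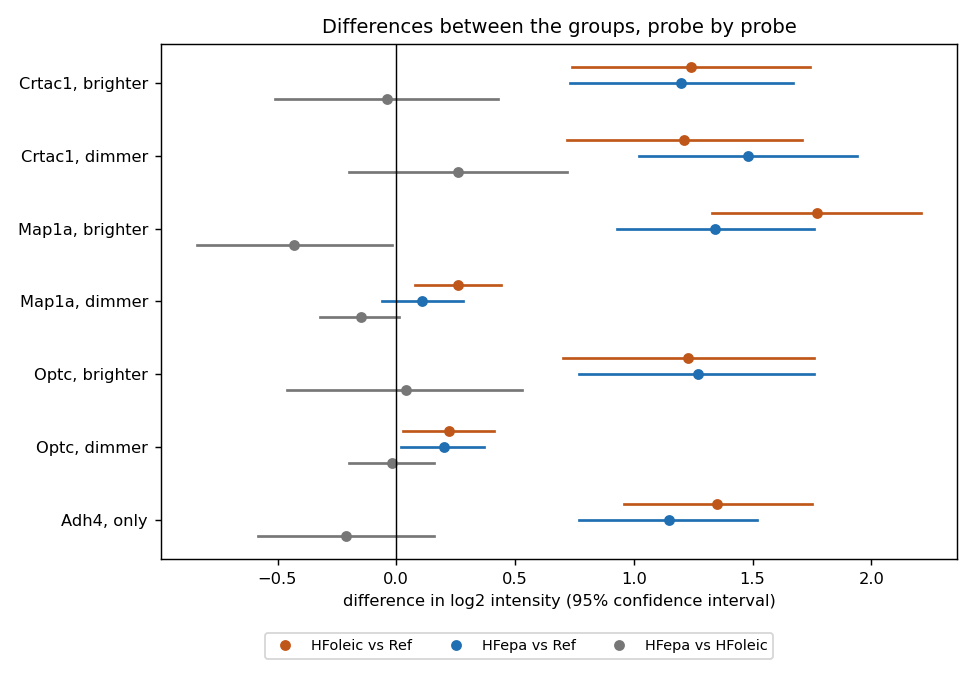
Difference in log2 intensity (x axis) with its 95% confidence interval, unadjusted, for each of the 7 probes (y axis) in the 3 contrasts of the legend. The genes were chosen on HFepa vs. Ref, so its intervals are a description. Nothing is read from whether they leave out 0. The brighter probes and both Crtac1 probes stand between 1.15 and 1.77 against Ref, the dimmer probes of Map1a and Optc stand at 0.26 or less, and of the grey intervals only that of the brighter Map1a probe (-0.84 to -0.02) leaves out 0.

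The rule has an edge that is not sharp. Of 74 probes (70 genes) that were called and did not overlap in HFepa over Ref, Dock8, a guanine nucleotide exchange factor of immune cells, led with 1.82, then came Crtac1 with 1.48, Map1a with 1.34, Optc with 1.27 and Adh4 with 1.1459. The next, F730043M19Rik, had 1.1458 and so was left out by a margin far below the spread between mice, and Tspan18 followed with 1.08. Another 7 probes had a larger rise than Adh4 without overlap but were not called. Of these neighbours in the order, F730043M19Rik was 1.37 higher in HFoleic than in Ref and Tspan18 1.85 higher.

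The members' mice were not in the same order in every gene. Over the 20 deviations from the group means, Crtac1 correlated with Map1a at r = 0.78, with Optc at 0.69 and with Adh4 at 0.61, Map1a with Adh4 at 0.69 and with Optc at 0.64, and Optc with Adh4 at 0.41. These r values describe arrays that share a normalization, and carry no test. Within the 8 HFepa mice alone Crtac1 and Map1a had r = 0.86 (rho 0.88, exact permutation p = 0.00575 for r and 0.00724 for rho, two-sided), which did not pass after adjustment over the 10 relations computed in HFepa (adjusted p = 0.0575 and 0.0724). Without HFepa mice 3 and 8, the farthest from the median of Crtac1, r was 0.51. The other 5 pairs had r between 0.14 and 0.66. They were also read without the mice farthest from the median of the gene named first. Without HFepa mice 3 and 8, Crtac1 had r = -0.22 with Optc and -0.28 with Adh4. Without HFepa mice 3 and 6, Map1a had 0.30 with Optc and -0.71 with Adh4. Without HFepa mice 7 and 8, Optc had 0.59 with Adh4. The HFepa arrays also entered the choice of the genes, and the p-values within HFepa do not allow for this.

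The genes whose deviations were most like those of each member, among the brightest probes of all 25618 names and over the same 20 arrays, were as follows. For Crtac1 they were Prelp, a leucine-rich proteoglycan of the matrix (r = 0.91), Dap (0.87) and a transcript named ENSMUST00000122212 (0.86). For Map1a they were Sh3tc2 (0.89), Tril (0.89) and Lxn (0.88). For Optc they were Svil, an actin-binding protein (0.82), NAP114425-1 (0.82) and Lamb3, a laminin chain (0.81). For Adh4 they were Ugt3a1, a glycosyltransferase (0.89), and Il2ra, a chain of the interleukin 2 receptor (0.86). The highest r of Optc was below that of the other 3 members.

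The nearest tested genes on the chromosome were read to see how far the differences reached along it. Beside Crtac1, Golga7b (13.6 kb from its probe) was 1.36 higher in HFoleic than in Ref (limma adjusted p = 0.000943) and 0.93 higher in HFepa than in Ref (limma adjusted p = 0.0446), although a second Golga7b probe was not called (0.14 and 0.09). Sfrp5, a secreted Wnt inhibitor and adipokine 85.8 kb away, rose by 1.60 in HFoleic (limma adjusted p = 0.00292) and by 1.52 in HFepa (limma adjusted p = 0.029). Sfrp5 had means of 14.15 ± 1.05 (SD, n = 6), 15.75 ± 0.21 (n = 6) and 15.67 ± 0.54 (n = 8) in Ref, HFoleic and HFepa. On the other side, R3hcc1l at 307 kb fell by 0.32 in HFoleic (limma adjusted p = 0.0039) and Loxl4 at 309 kb was not called.

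Beside Optc, Prelp (13.1 kb), the gene whose deviations were most like those of Crtac1, was 0.86 higher in HFoleic (limma adjusted p = 0.00106) and 0.63 higher in HFepa (limma adjusted p = 0.0391) than in Ref. Prelp is of the same proteoglycan family as Optc, and its means were 16.14 ± 0.43 (SD, n = 6), 17.00 ± 0.15 (n = 6) and 16.76 ± 0.26 (n = 8). Fmod, another member of that family 150.2 kb away, and Atp2b4 and Lax1 on the other side were not called.

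Around Map1a and Adh4 the neighbours differed in direction and in call. Ppip5k1, 2.3 kb from the brighter Map1a probe, was 0.27 higher in HFoleic than in Ref (limma adjusted p = 0.0172), and Trp53bp1, Tubgcp4 and Ckmt1 were not called in any contrast. In the alcohol dehydrogenase cluster on chromosome 3, the 2 tested alcohol dehydrogenases other than Adh4 were lower in HFoleic than in Ref. Adh1, the class I enzyme (140.9 kb), was lower than in Ref by 0.71 in HFoleic (limma adjusted p = 0.00133) and by 0.52 in HFepa (limma adjusted p = 0.0423), and its means were 14.19 ± 0.28 (SD, n = 6), 13.49 ± 0.15 (n = 6) and 13.67 ± 0.29 (n = 8). A second Adh1 probe had a difference from Ref of -0.53 in HFoleic (limma adjusted p = 0.0286). In HFepa it had -0.6, which was not called (limma adjusted p = 0.057). Adh5, the class III enzyme (24.4 kb), was lower by 0.27 in HFoleic (limma adjusted p = 0.0473) and its difference in HFepa was -0.20 (limma adjusted p = 0.232). These were 2 of 5 other alcohol dehydrogenases in the list, since Adh6a and Adh7 did not pass the filter on dim probes and no probe carries the name Adh6b, and both fell in HFoleic and 1 in HFepa. Adh6-ps1, a pseudogene 42.7 kb away, was 0.69 higher in HFoleic (limma adjusted p = 0.00152), and Metap1 (28.3 kb) fell by 0.36 there (limma adjusted p = 0.0139).

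**Figure D3:**
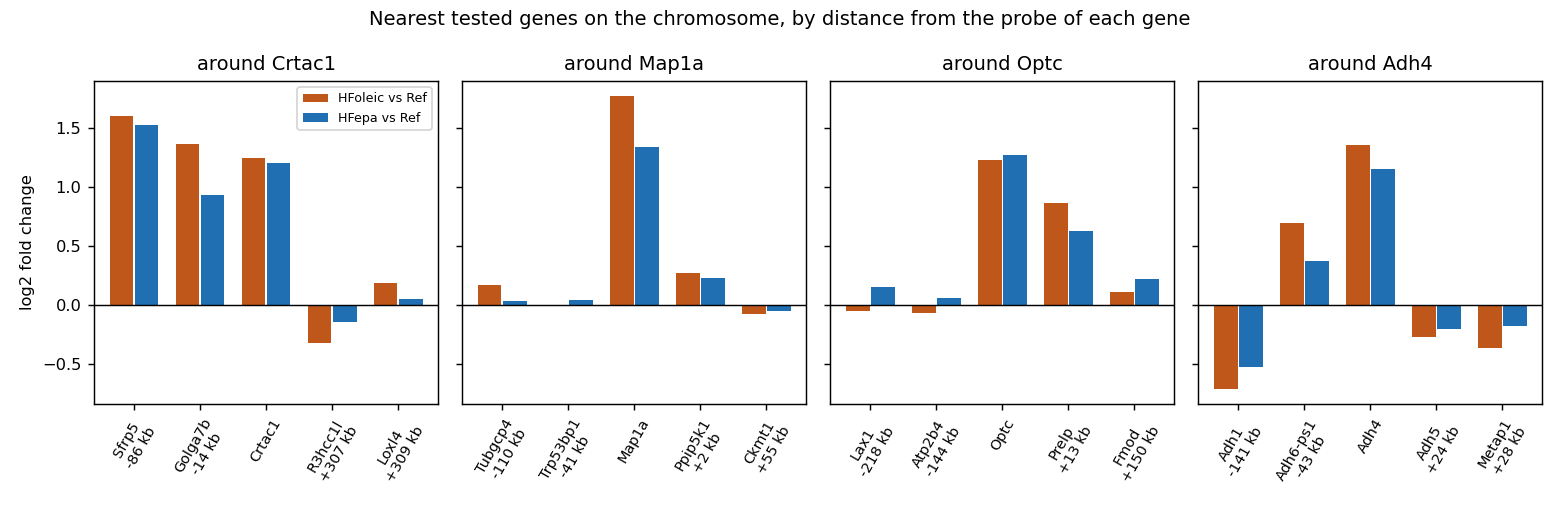
Log2 fold change (y axis) of each member, with its brightest probe, and of the 2 nearest tested genes on either side, in HFoleic vs. Ref and HFepa vs. Ref, ordered along the chromosome with the distance from the member's probe in kb. Sfrp5 (1.60 and 1.52) and Golga7b rise beside Crtac1, Prelp (0.86 and 0.63) rises beside Optc, and Adh1 (-0.71 and -0.52) falls beside Adh4.

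The families of the members were read next, with the members left out of the counts. Over all 25618 genes, 3887 were called higher and 4272 lower in HFoleic vs. Ref (15.2% and 16.7%, together 31.8%), and 265 higher and 365 lower in HFepa vs. Ref (1.03% and 1.42%, together 2.46%), with a median log2 fold change of -0.039 and -0.019. Of 14 tested small leucine-rich proteoglycans, the family of Optc, 5 were higher and 1 lower in HFoleic than in Ref (median 0.07), and 2 were higher and 1 lower in HFepa than in Ref (median -0.02). Lum, a regulator of collagen fibrils, was 1.57 higher in HFoleic (limma adjusted p = 0.000905), and Ecm2 0.53 higher (0.000471) and Bgn 0.59 higher (0.00103). In HFepa, Ecm2 was 0.31 higher than in Ref (limma adjusted p = 0.0449). Podn went the other way, with a fall by 1.40 in HFoleic (limma adjusted p = 0.000138) and by 0.70 in HFepa (limma adjusted p = 0.0258).

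Of the 14 other microtubule-associated proteins, 3 were higher and 2 lower in HFoleic than in Ref (median 0.08), and 1 was higher in HFepa than in Ref (median 0.09). Mapre2, which binds growing microtubule ends, was higher by 0.57 in HFoleic (limma adjusted p = 0.000741) and by 0.42 in HFepa (limma adjusted p = 0.0312), and Mapre1 by 0.29 in HFoleic (limma adjusted p = 0.00217). Mapt, the tau protein, fell by 1.05 in HFoleic (limma adjusted p = 0.0048). Map1b, the nearest relative of Map1a, was not called, with differences of -0.35 in HFoleic and 0.16 in HFepa. Of 13 tubulins, 4 were higher and 3 lower in HFoleic than in Ref (median 0.30), with Tubb6 higher by 1.09 (limma adjusted p = 0.00198) and Tuba8 lower by 1.41 (limma adjusted p = 0.00226), and none was called by limma in HFepa vs. Ref (median 0.12, 5 at an unadjusted p under 0.05).

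Of 21 tested genes of retinoid handling, a pathway that Adh4 can feed by oxidising retinol, 5 were higher and 2 lower in HFoleic than in Ref (median 0.05), and 1 was higher in HFepa than in Ref (median -0.04). Fabp5, a carrier of fatty acids and retinoic acid, was higher by 1.26 in HFoleic (limma adjusted p = 0.000426) and by 0.75 in HFepa (limma adjusted p = 0.0385). Dhrs9, a retinol dehydrogenase, was higher by 2.22 in HFoleic (limma adjusted p = 0.00236). Aldh1a1, which makes retinoic acid from retinal, fell by 0.82 in HFoleic (limma adjusted p = 0.00453). Aldh1a2 went the other way and was higher by 1.27 in HFoleic (limma adjusted p = 0.00809). Of 8 tested genes of the Nogo receptor pathway, which the neuronal form of Crtac1 acts on, 2 were higher and 1 lower in HFoleic than in Ref (median -0.10). In HFepa 1 was higher than in Ref (median -0.05). Rtn4r, the gene of the Nogo receptor itself, and Omg did not pass the filter on dim probes. Rtn4rl1, a receptor of this family, was higher by 0.98 in HFoleic (limma adjusted p = 0.0013) and by 0.73 in HFepa (limma adjusted p = 0.0411), and Rtn4, the Nogo protein, by 0.60 in HFoleic (limma adjusted p = 0.00645). Between HFepa and HFoleic limma called none of the 72 genes of these 6 families, the alcohol dehydrogenases included, and 17 had an unadjusted p under 0.05 (6 higher and 11 lower in HFepa).

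The samples were whole tissue, in which more cells of a type and more RNA per cell cannot be told apart, so markers of cells in which the members are known were read beside them. Of 12 cartilage markers only 5 were tested, since Acan, Matn1, Matn3, Col9a1 and Hapln1 did not pass the filter on dim probes and no probe carries the name Cnmd or Snorc. Col2a1 and Comp were higher in HFoleic than in Ref by 1.42 (limma adjusted p = 0.00141) and 0.90 (limma adjusted p = 0.0169), Col9a2 was lower, and limma called none in HFepa vs. Ref (3 at an unadjusted p under 0.05). The mean level of the 5 markers ran from 6.72 to 7.52 in Ref, 7.1 to 7.75 in HFoleic and 6.85 to 7.74 in HFepa. Of 11 tested neuron markers, only Syp was called, higher by 0.81 in HFoleic (limma adjusted p = 0.000294) and by 0.49 in HFepa (limma adjusted p = 0.0278), and the mean level ran from 8.1 to 8.54, 8.19 to 8.57 and 8.19 to 8.6. Of 15 liver markers, Cyp2e1 alone was called in HFoleic vs. Ref, lower by 1.29 (limma adjusted p = 0.0105), limma called none in HFepa vs. Ref (1 at an unadjusted p under 0.05), and the mean level ran from 7.73 to 10.18, 7.9 to 11.36 and 8.32 to 10.48. In these 3 lists the ranges of the groups overlapped, and their part in the members' rise was not tested.

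Macrophage markers differed between the groups and among the HFepa mice. The list of 10 markers of lipid-associated macrophages, the lipid-laden cells of obese fat, had a mean log2 level of 10.49 to 11.42 in Ref (median 10.97), 12.86 to 14.3 in HFoleic (median 13.9) and 10.9 to 14.62 in HFepa (median 12.06). In HFoleic vs. Ref 9 of the 10 were higher, with a median log2 fold change of 3.09. In HFepa vs. Ref the median was 1.46, and only Fabp5 was called higher (7 at an unadjusted p under 0.05). Fabp5 is also in the list of retinoid handling above. General macrophage markers ran from 11.37 to 11.76, 12.03 to 12.94 and 11.28 to 12.89, with 6 of 10 higher and 1 lower in HFoleic vs. Ref and none called by limma in HFepa vs. Ref (5 at an unadjusted p under 0.05).

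HFepa mice 3 and 5 had a lipid-associated macrophage level of 10.9 and 11.21, within the Ref range. Mouse 5 had Crtac1 at 13.56, Map1a at 8.2, Optc at 8.34 and Adh4 at 8.54, and mouse 3 had the lowest Crtac1 (12.72), Map1a (7.11) and Adh4 (7.9) of its group. That HFepa mice lie above Ref for Map1a, Optc and Adh4 was fixed by the choice of the genes, and nothing is read from it here. HFepa mouse 1, with the highest macrophage level of all 20 mice (14.62), had Crtac1 at 13.5, Map1a at 8.13, Optc at 8.19 and Adh4 at 8.6, in no gene the highest or the lowest of its group. HFepa mouse 6, with the next highest level of its group (13.93), had the highest Map1a (8.51) and Adh4 (8.85) of its group. HFoleic mouse 1, the lowest of its group for all 4 genes, also had the lowest macrophage level of its group (12.86). It was the lowest HFoleic mouse in 62.9% of all probes called higher in HFoleic vs. Ref. The part of macrophages in the members' rise was not tested.

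The relation of the lipid-associated macrophage level to each gene over the 8 HFepa mice had r = 0.42 for Crtac1 (rho 0.33, exact permutation p = 0.289 for r and 0.428 for rho, two-sided, adjusted p = 0.413 and 0.535). For Map1a r was 0.56 (rho 0.38, exact permutation p = 0.0787 and 0.36, adjusted p = 0.235 and 0.535). For Optc r was 0.30 (rho 0.52, exact permutation p = 0.465 and 0.197, adjusted p = 0.582 and 0.486), and for Adh4 0.58 (rho 0.48, exact permutation p = 0.104 and 0.243, adjusted p = 0.235 and 0.486). All 4 were positive and none passed. Without HFepa mice 1 and 6, the farthest from the median, r was 0.54, 0.60, 0.80 and 0.35 in that order. These p-values too do not allow for the choice of the genes on HFepa arrays.

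**Figure D4:**
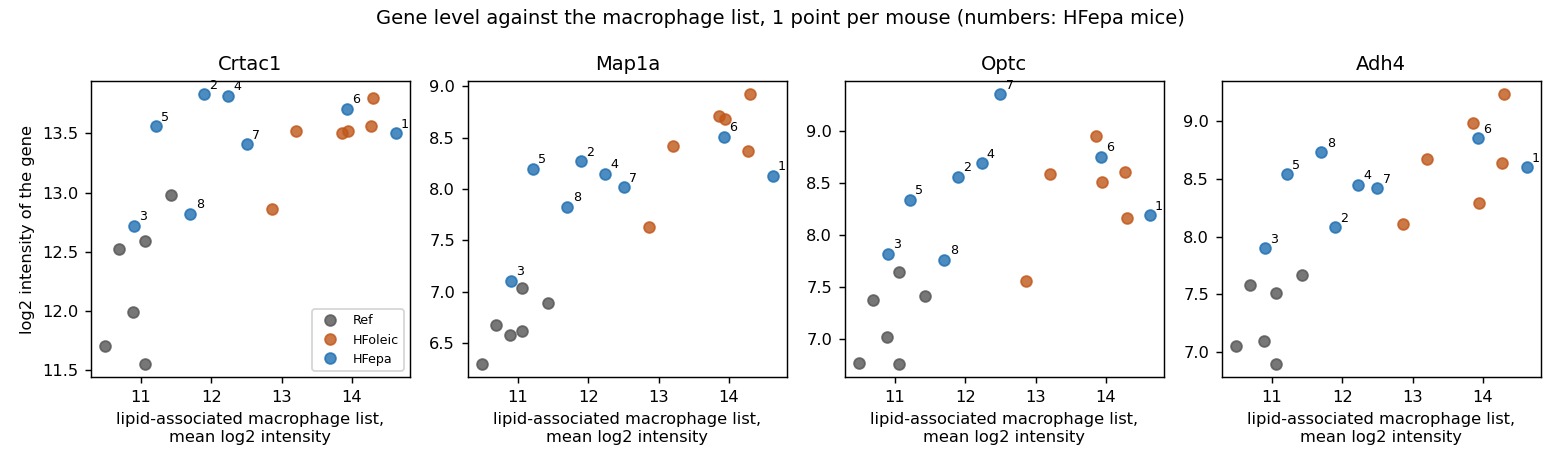
Log2 intensity of each gene with its brightest probe (y axis) against the mean log2 intensity of the 10 lipid-associated macrophage markers (x axis), 1 point per mouse, coloured by group, with HFepa mice numbered. The HFepa mice spread along the x axis from 10.9 (mouse 3) to 14.62 (mouse 1), and mouse 3 is the lowest HFepa mouse for Crtac1, Map1a and Adh4.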

How the data were processed

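RNA of 20 VAT samples was labelled with Cy3 and hybridized to Agilent 1-colour arrays. Per the file headers, the authors extracted spot intensities with Agilent Feature Extraction 10.10.1.1, and the deposited median intensity is linear and not normalized. A second table from the authors, of log2 values after a probe filter and quantile normalization, served as an alternative. Its 38168 probes include 38132 of those tested here.

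Values were computed in R 4.3.3 with limma 3.58.1, and permutation tests in scipy 1.17.1. Control spots were left out, and flagged spots (uneven ones, or outliers among repeats) were treated as missing, which left 24 missing values. Probes well above background on at least 6 arrays were tested. The log2 median intensity was quantile-normalized without background correction. One mean per group was fitted with lmFit, and contrasts were tested with eBayes, with p-values adjusted by Benjamini–Hochberg over the 39390 probes and a threshold of 0.05. The fit and its contrasts were tested on simulated data with independent noise between probes. The filter and the normalization were not tested in this way. The number of arrays limits the precision. Probe positions are those of the files on mm9, and promoters are RefSeq's on GRCm38.p6.

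A gene is read with its brightest tested probe over all arrays. Named are the members with all probes, Dock8 and the genes next in the order of the rule, the 3 genes most like each member (1 of them is not reported here), 2 neighbours on either side, and up to 4 called genes or defining markers per list. A list level is the mean over its tested genes. Members and lists were chosen with earlier results of these data known. Alternatives were other signals, background corrections, normalizations, filters and flags, the slide or replicate number as a block, array weights, fewer groups or slides, other probes and each array left out.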

Additional observations from a re-analysis of the deposited data

Results flagged for a closer look

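HFoleic mouse 1 stood apart on the brighter Crtac1 probe, with a log2 intensity of 12.86 against 13.5 for the nearest of the other 5 HFoleic mice. Its gap was 0.679 of the range of the group, above the critical value of 0.625 for 6 samples. It was the only one flagged among the 21 groups of arrays examined (7 probes in 3 groups), and chance flags about 1 in 20. Without this mouse Crtac1, Map1a, Optc and Adh4 stayed called in HFoleic vs. Ref.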

How the results depend on the processing

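The limits are few mice, 1 probe for Adh4, and dim second probes for Map1a and Optc. With the brightest probe, Crtac1, Map1a, Optc and Adh4 stayed called in HFoleic vs. Ref in every fit run, and none was called in HFepa vs. HFoleic. Leaving out 1 array at a time gave log2 fold changes in HFoleic vs. Ref of 1.1 to 1.39 for Crtac1, 1.68 to 1.94 for Map1a, 1.12 to 1.40 for Optc and 1.24 to 1.46 for Adh4. The dimmer probes gave 0.22 for Optc in HFoleic vs. Ref (limma adjusted p = 0.0737), and 0.20 for Optc and 0.11 for Map1a in HFepa vs. Ref. Within slide 3, with 2 mice of each group, Map1a was 0.93 in HFepa vs. Ref and -0.98 in HFepa vs. HFoleic. On the processed signal the r of Crtac1 and Map1a within HFepa was 0.90 (exact permutation, adjusted p = 0.0283). That p-value does not allow for the choice of the genes on HFepa arrays.

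Counts of called probes moved far more in the contrasts with HFepa. In HFoleic vs. Ref 12147 probes were called, and the alternatives gave 9833 to 16104. In HFepa vs. Ref 892 probes were called, 575 with median centring, 583 with no filter, 1459 with array weights and 140 with only the 2 groups fitted. In HFepa vs. HFoleic the count of 1 became 0 on the processed signal, with normexp, with median centring and with only the 2 groups fitted, 1297 with the slide as a block and 4575 with array weights. Leaving out 1 array gave 130 (without Ref mouse 6) to 2513 (without HFepa mouse 3) in HFepa vs. Ref, and 0 to 2867 (without HFepa mouse 1) in HFepa vs. HFoleic. Leaving out both HFoleic mouse 1 and HFepa mouse 3, chosen after seeing the data, gave 3029 and 140. The cause was not tested. Replicate numbers did not pair the mice (correlation of same-numbered deviations -0.59 to 0.56, best with its own number in 1 of 16 pairs), and with them as a replicate block 544 probes were called in HFepa vs. Ref and 0 in HFepa vs. HFoleic, with no change in the calls of the 4 genes.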

Other observations

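Other cell type lists were read beside the 4 genes. Of 12 adipose stem cell and fibroblast markers, 6 were higher in HFoleic than in Ref, Col1a1 by 1.49 (limma adjusted p = 0.000453) and Col3a1 by 1.37 (limma adjusted p = 0.00082) among them, and limma called none in HFepa vs. Ref (4 at an unadjusted p under 0.05). The mean level of this list ran from 12.07 to 12.59 in Ref, 12.64 to 13.21 in HFoleic and 12.26 to 12.78 in HFepa, so that HFoleic and Ref did not overlap in it. Of 12 adipocyte markers, Lep was higher by 1.13 in HFoleic (limma adjusted p = 0.000741) and 4 were lower, Lipe by 1.19 (limma adjusted p = 0.000517) among them, and limma called none in HFepa vs. Ref (2 at an unadjusted p under 0.05). Their part in the rise of Crtac1, Map1a, Optc and Adh4 was not tested.

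Of 10 Schwann cell markers 1 was higher and 2 were lower in HFoleic than in Ref, of 7 skeletal muscle markers 2 were higher, and of 6 tested testis markers 1 was higher and 1 lower. Of 8 smooth muscle and pericyte markers 1 was lower and of 8 tested T cell markers 1 was higher. Of 30 mesothelial, endothelial, B cell and epididymis markers limma called none in HFoleic vs. Ref (4 at an unadjusted p under 0.05), and of the 69 genes of these 9 lists it called none in HFepa vs. Ref (6 at an unadjusted p under 0.05).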
